A study of Homo sapiens with 12 samples.

Results

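The circadian clock genes described here are PER1, PER2, PER3, CRY1, CRY2, NR1D1, NR1D2, DBP, BMAL1 and CLOCK. They were chosen by name from the 60617 gene IDs of the count tables, and all 10 were found once and were among the 23041 genes tested. The cells were 12Z, a line of immortalized epithelial cells from human endometriosis, and their mRNA was sequenced in 12 libraries, 3 for each of 4 groups. The Viperin + Insulin group carried the pCAG Viperin plasmid and received 100 nM insulin, and the Viperin group carried that plasmid and received vehicle. The Insulin group carried the pCAG empty vector and received 100 nM insulin, and the Control group carried the empty vector and received vehicle. One label of the treatment names a pBabe empty vector, while the other labels and the methods give pCAG for this comparison. All 4 groups were transfected transiently, starved of serum for 4 h and then kept in serum-free medium with insulin or vehicle for 24 h before RNA was collected. The methods describe the 3 libraries of a group as independent experiments, all in the same cell line. Each group was read at 1 time only, so the values are levels at that time and give no phase or amplitude of a rhythm. In bulk RNA, a lower value from fewer cells of a type cannot be told apart from less RNA per cell.

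The circadian clock is a feedback loop of transcription that most human cells carry. CLOCK and BMAL1 form a pair of bHLH-PAS factors that bind E-boxes and switch on the PER and CRY genes, whose proteins then repress that pair. NR1D1 and NR1D2 (REV-ERB alpha and beta) are nuclear receptors that repress BMAL1 through ROR elements, and DBP is a PAR bZIP factor that binds D-boxes in PER and other promoters. In cultured cells, a change of medium, serum or hormone can set the time of the loop, and insulin is known to induce PER proteins in mouse cells.

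Stretches of the members' promoters are shown whose letters match elements through which these factors can act on each other. RefSeq sequence of build GRCh38.p14 gave 15 promoters for the 10 genes, each with 250 bases before and 50 bases after a start. The searched letters were the E-box CACGTG, the E-prime box CACGTT, the D-box TTATGTAA, the ROR element TAGGTCA, the cAMP response element TGACGTCA and the FOXO element TGTTTAC, on both strands. Where the match lies on the other strand, the letters shown are their reverse complement, such as AACGTG for the E-prime box. No match overlaps another in the windows shown, though the FOXO match of CRY1 stands in lower case near the start of its line. Capitals mark the named match, the lines run 5' to 3' on the strand of the gene, and the negative offset is the distance of its first base from the RefSeq start.
PER3 D-box, chr1:7784097-7784138, plus strand, offset -177: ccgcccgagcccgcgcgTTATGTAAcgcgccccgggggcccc
CLOCK E-prime box, chr4:55546097-55546136, minus strand, offset -187: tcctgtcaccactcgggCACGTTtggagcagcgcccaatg
PER1 E-box, chr17:8152555-8152594, minus strand, offset -173: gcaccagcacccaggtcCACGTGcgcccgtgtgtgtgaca
NR1D2 E-box, chr3:23945949-23945988, plus strand, offset -155: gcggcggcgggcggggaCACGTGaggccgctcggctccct
CRY1 E-prime box, chr12:107093616-107093655, minus strand, offset -89: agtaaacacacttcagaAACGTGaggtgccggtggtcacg
NR1D1 E-prime box, chr17:40100735-40100774, minus strand, offset -168: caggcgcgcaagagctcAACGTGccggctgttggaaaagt
BMAL1 ROR element, chr11:13277810-13277839, plus strand: aggcagaaagTAGGTCAgggacggaggtgc
By GENCODE release 44, the PER3, CRY1 and NR1D1 windows lay outside the annotated gene, the CLOCK, PER1 and NR1D2 windows in an intron of a longer model, and the BMAL1 window touched an exon, 30 bases after the RefSeq start.

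Matches were read against all 35116 RefSeq promoters of the same length, and the DBP promoter held 0 matches. The E-box stood in 2 of the 15 promoters (PER1 and NR1D2) and in 7.26% of all promoters. The E-prime box stood in 5 (PER2, CRY1, CRY2, NR1D1 and CLOCK) against 5.34% of all, and the D-box in 2 (PER3 and NR1D2) against 0.886% of all. The ROR element stood in 2 (CRY2 and BMAL1) against 1.85% of all, the FOXO element in 1 (CRY1) against 3.42%, and the cAMP response element in 0 against 1.85%. These matches describe letters in a window of the reference and are not measured binding sites.

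The libraries held 25979022 to 46889002 read pairs assigned to genes on the reverse strand. RSAD2, which encodes Viperin, was at 463 to 609 CPM (counts per fixed total of counts, scaled by TMM) in Viperin + Insulin and 384 to 665 CPM in Viperin, against 3.01 to 5.19 CPM in Insulin and 2.28 to 3.48 CPM in Control. Control library 1 and Viperin library 3 stood apart, with 13.9% and 12.1% of reads mapped to more than 1 place, against 9.44% to 10.99% in the other 10 libraries. Of the epithelial markers, KRT8 was at 1173 to 1429 CPM and KRT18 at 757 to 915 CPM, while EPCAM was at 0.0773 to 0.828 CPM and CDH1 at 0.808 to 2.003 CPM. KRT19 was at 430 to 508 CPM, KRT7 at 33.8 to 39.8 CPM, PAX8 at 12.4 to 16.0 CPM and MUC1 at 5.20 to 8.52 CPM, so EPCAM and CDH1 were the lowest of the 8 epithelial markers. Of the 10 stromal markers, COL1A1 (1134 to 1651 CPM) and VIM (1391 to 1739 CPM) were also high, while PDGFRA was lowest at 16.9 to 22.7 CPM. Of 7 immune and endothelial markers, CD14 was at 4.52 to 5.80 CPM, VWF at 2.98 to 4.02 CPM, CDH5 at 1.45 to 3.43 CPM, PTPRC at 0.479 to 1.84 CPM and PECAM1 at 0.329 to 0.698 CPM, while CD68 and CD3E were at 0 in at least 1 library and did not exceed 0.180 CPM.

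All 10 clock genes were expressed. Ordered by level per length (CPM per kb of exon, mean ± SD over 12 libraries), NR1D2 was highest at 16.3 ± 0.673 and CLOCK followed at 14.1 ± 0.644. CRY1 was at 6.90 ± 0.411, PER3 at 6.54 ± 0.455 and NR1D1 at 4.86 ± 0.485 CPM per kb. BMAL1 was at 2.64 ± 0.175, PER1 at 2.18 ± 0.128, CRY2 at 1.93 ± 0.108, DBP at 1.09 ± 0.125 and PER2 at 0.844 ± 0.0905 CPM per kb. CRY1 and PER3 lay closer to each other than their spread. The levels of paralogs differed, since PER3 was the most abundant PER gene, CRY1 exceeded CRY2 and NR1D2 exceeded NR1D1. Counts behind these levels ran between 138 and 280 for PER2 and between 4331 and 7751 for CLOCK, the extremes of the 10 genes. The length joins all annotated exons of a gene, so the order can depend on it. For PER1 it was 7002 bases, where the longest transcript has 4676, and for NR1D1 both were 2630. The exons of NR1D1 overlap those of THRA, and the exons of DBP those of SPHK2, on the other strand, and the counts used keep the strands apart. On the same strand, exons of PER1 overlap those of MIR6883 and of an unnamed gene, and reads that fall on more than 1 gene are not in the counts.

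None of the members moved far. The highest library exceeded the lowest by a factor of 1.11 for NR1D2, the narrowest range, and of 1.42 for DBP, the widest. The SD of log2 CPM within groups was 0.0413 for CLOCK, 0.0444 for NR1D2, 0.0547 for BMAL1, 0.0637 for PER3 and 0.0662 for CRY1, and ran to 0.132 for NR1D1, 0.144 for PER2 and 0.161 for DBP. Changes of the more abundant members were therefore measured with less error than those of DBP and PER2.

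**Figure D1:**
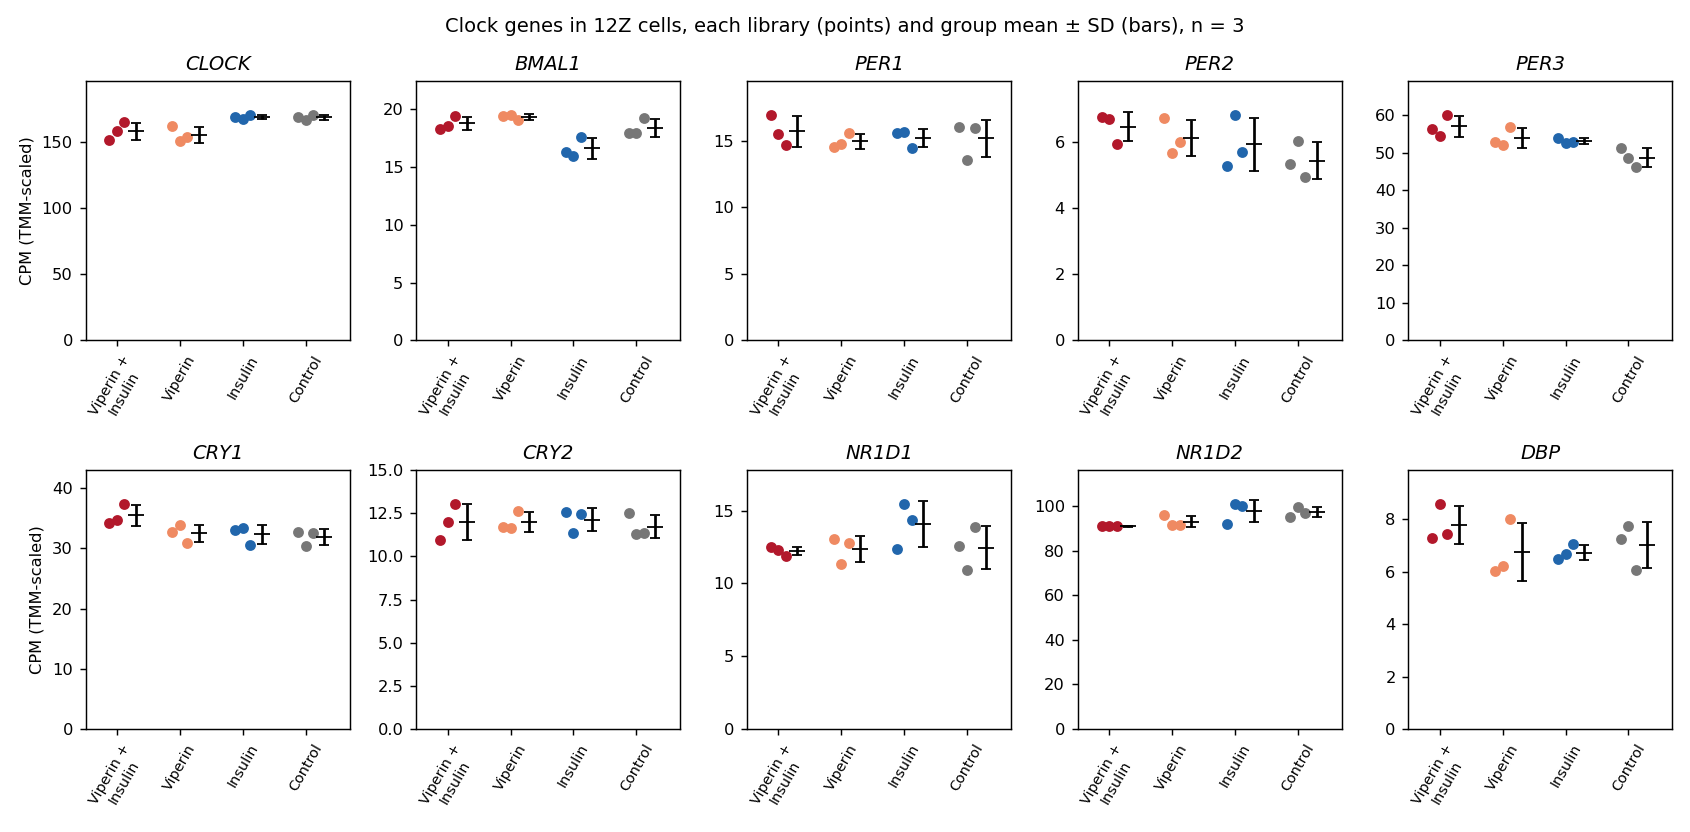
Expression of the 10 clock genes in each of the 12 libraries, in CPM scaled by TMM on axes that start at 0. Points are libraries, bars are the group mean ± SD (n = 3), and the groups run Viperin + Insulin, Viperin, Insulin and Control. In the CLOCK panel, all 6 libraries with the Viperin plasmid (150.3 to 165 CPM) lie below the 6 with empty vector (166 to 170.3 CPM), while these sets overlap in the other 9 panels.

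The first question was whether Viperin OE changed the clock genes, taken over both insulin states (6 libraries each). PER3 was higher and CLOCK was lower with the Viperin plasmid, and the other 8 members were not called at an adjusted p under 0.05 (edgeR quasi-likelihood test, Benjamini-Hochberg over 23041 genes). That is 2 of 10 members, where 7.96% of all genes tested were called. Among all genes, 4.47% were called higher and 3.49% lower. The median log2 fold change was 0.04 over the members and 0.0019 over all genes.

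CLOCK (ENSG00000134852.15, chr4:55427903-55546909, minus strand, GRCh38) encodes the factor that pairs with BMAL1. CLOCK was at 152, 158 and 165 CPM in Viperin + Insulin and at 161.5, 150.3 and 153 CPM in Viperin. It was at 168, 167 and 170.3 CPM in Insulin and at 169, 166 and 170.01 CPM in Control. Every library with the Viperin plasmid lay below every library with empty vector, a separation downward that 0.655% of all genes tested showed. This share counts the lower direction only, while the shares without overlap given for the single comparisons count either direction. CLOCK was the 1 member of 10 with this separation downward. The mean was 157 ± 5.73 CPM with the Viperin plasmid and 168 ± 1.60 CPM with empty vector (SD, n = 6 each). The log2 fold change was -0.11 (SE 0.03), which is a fold of 0.929 with a 95% interval of 0.896 to 0.964 (edgeR quasi-likelihood test, adjusted p = 0.00499). The spread was wider with the Viperin plasmid than with empty vector, and this difference in spread was not tested. CLOCK kept its call without each of the 12 libraries in turn, at an adjusted p of 0.00205 to 0.0405.

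PER3 (ENSG00000049246.14, chr1:7784291-7845177, plus strand) encodes the PER paralog with the weakest role as a repressor in mouse knockouts. PER3 was at 56.4, 54.5 and 60.1 CPM in Viperin + Insulin and at 52.7, 51.9 and 56.9 CPM in Viperin. It was at 54.0, 52.5 and 52.9 CPM in Insulin and at 51.2, 48.7 and 46.1 CPM in Control. The plasmid groups overlapped, because the Insulin libraries lay within the range of the Viperin libraries. The mean was 55.4 ± 2.99 CPM with the Viperin plasmid and 50.9 ± 2.99 CPM with empty vector (SD, n = 6 each). The log2 fold change was 0.12 (SE 0.03), a fold of 1.09 with a 95% interval of 1.04 to 1.14 (edgeR, adjusted p = 0.0110). The call was lost without Viperin library 3 (adjusted p = 0.0529), without Viperin + Insulin library 3 (adjusted p = 0.0801), with unstranded counts (adjusted p = 0.159) and once each library's trend with GC content and transcript length was taken out (adjusted p = 0.0742). PER3 exons overlap those of UTS2 and of an unnamed gene on the other strand, and its unstranded counts were 63.7% to 70.8% of its reverse-strand counts.

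The other 8 members were given by their values. NR1D2, the REV-ERB beta receptor, averaged 91.9 ± 1.94 CPM with the Viperin plasmid and 97.4 ± 3.41 CPM with empty vector, a log2 fold change of -0.08 (SE 0.03, edgeR adjusted p = 0.0589). NR1D2 was called once the trend with GC content and length was taken out (log2 fold change -0.10, edgeR adjusted p = 0.0108). It was also called with RLE size factors and with the scaling computed without RSAD2 and mitochondrial genes. The same held with filterByExpr, with DESeq2 under independent filtering and with unstranded counts. Leaving out Control library 1, Insulin library 1 or Viperin library 1 gave the call too. So did leaving out Control library 1 and Viperin library 3 together. BMAL1, the partner of CLOCK, averaged 19.1 ± 0.512 CPM with the Viperin plasmid and 17.5 ± 1.23 CPM with empty vector, a log2 fold change of 0.13 (SE 0.05, edgeR adjusted p = 0.0999). Thus the fitted values of CLOCK and BMAL1, whose proteins work as a pair, had opposite signs. CRY1, the stronger of the cryptochrome repressors in mouse cells, averaged 34.0 ± 2.16 CPM with the Viperin plasmid and 32.1 ± 1.30 CPM with empty vector (log2 fold change 0.08, edgeR adjusted p = 0.222). For PER1, PER2, CRY2, NR1D1 and DBP the log2 fold changes lay between -0.11 and 0.15. At an unadjusted p under 0.05, 5 of the 10 members would pass (PER3, CRY1, NR1D2, BMAL1 and CLOCK). At that threshold 4420 of all 23041 genes tested would pass as well. The 95% half-widths of the log2 fold change ran between 0.0532 (CLOCK) and 0.159 (PER2), and over the 10 members the intervals reached from a fold of 0.854 to one of 1.24.

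Other measures moved with the Viperin plasmid. Of 10 stromal and fibroblast markers, 7 were higher and 1 (VIM) was lower in the same test, and their summed level was 6327 to 6610 CPM in Viperin + Insulin and 6461 to 6639 CPM in Viperin, against 5737 to 5925 CPM in Insulin and 5577 to 6117 CPM in Control, with no marker at 0. Of 8 epithelial markers, KRT8 was lower and none was higher, and their sum was 2584 to 2696 CPM in Viperin + Insulin and 2451 to 2541 CPM in Viperin, against 2686 to 2860 CPM in Insulin and 2588 to 2659 CPM in Control. Mitochondrially encoded genes took a share of 4.28% to 4.52% in Viperin + Insulin, 4.82% to 5.34% in Viperin, 5.14% to 5.19% in Insulin and 5.59% to 6.64% in Control. Of 3 erythroid markers, the globin gene HBB was lower, at 0.0525 to 0.191 CPM in Viperin + Insulin and 0.0249 to 0.106 CPM in Viperin, against 1.76 to 3.34 CPM in Insulin and 0.778 to 2.28 CPM in Control (edgeR adjusted p = 6.5e-10), which is 1 to 9 counts per library with the Viperin plasmid and 26 to 122 with empty vector. HBA1 and HBA2 did not exceed 0.177 CPM. The part of these measures in the clock gene values was not tested.

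The next question was whether insulin changed the clock genes, taken over both plasmids (6 libraries each). PER3 was higher with insulin and the other 9 members were not called, so 1 of 10 members passed, where 11.7% of all genes tested were called (5.76% higher and 5.97% lower). The count of members was not above that background. The median log2 fold change was 0.06 over the members and -0.0015 over all genes.

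PER3 averaged 55.1 ± 2.79 CPM with insulin and 51.3 ± 3.69 CPM with vehicle (SD, n = 6 each), and the libraries overlapped. The log2 fold change was 0.11 (SE 0.03), a fold of 1.08 with a 95% interval of 1.03 to 1.13 (edgeR, adjusted p = 0.0243). By group, PER3 averaged 57.0 ± 2.81 CPM in Viperin + Insulin, 53.9 ± 2.68 CPM in Viperin, 53.2 ± 0.764 CPM in Insulin and 48.7 ± 2.58 CPM in Control, so that Control was the lowest of the 4 groups. The lowest 3 of the 12 values were the Control libraries. The call was lost without Control library 3 (adjusted p = 0.0762), Insulin library 1 (adjusted p = 0.0556), Viperin library 1 (adjusted p = 0.0676), Viperin library 2 (adjusted p = 0.0835) or Viperin + Insulin library 3 (adjusted p = 0.115). PER3 was the only member called in both of these comparisons, which use the same 12 libraries. With insulin, 3 of the 10 stromal markers were lower and 0 higher, and 1 of the 8 epithelial markers (KRT8) was higher and 1 lower, and the mitochondrial share was lower in every insulin library than in every vehicle library with the same plasmid. Their part in the PER3 value was not tested.

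BMAL1 averaged 17.7 ± 1.37 CPM with insulin and 18.9 ± 0.739 CPM with vehicle, a log2 fold change of -0.10 (SE 0.05, edgeR adjusted p = 0.222). CLOCK averaged 163 ± 7.18 CPM with insulin and 162 ± 8.27 CPM with vehicle, a log2 fold change of 0.01 whose interval allows folds of 0.974 to 1.05. PER1 and PER2, the PER genes that respond quickly to hormones and serum, were not called. PER1 averaged 15.5 ± 0.884 CPM with insulin and 15.1 ± 0.946 CPM with vehicle, and its interval allows folds of 0.954 to 1.11. PER2 averaged 6.19 ± 0.651 CPM with insulin and 5.78 ± 0.616 CPM with vehicle, with an interval of 0.958 to 1.19. At this depth and with 6 libraries each, the data did not tell apart changes of these 2 genes within those intervals from no change.

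**Figure D2:**
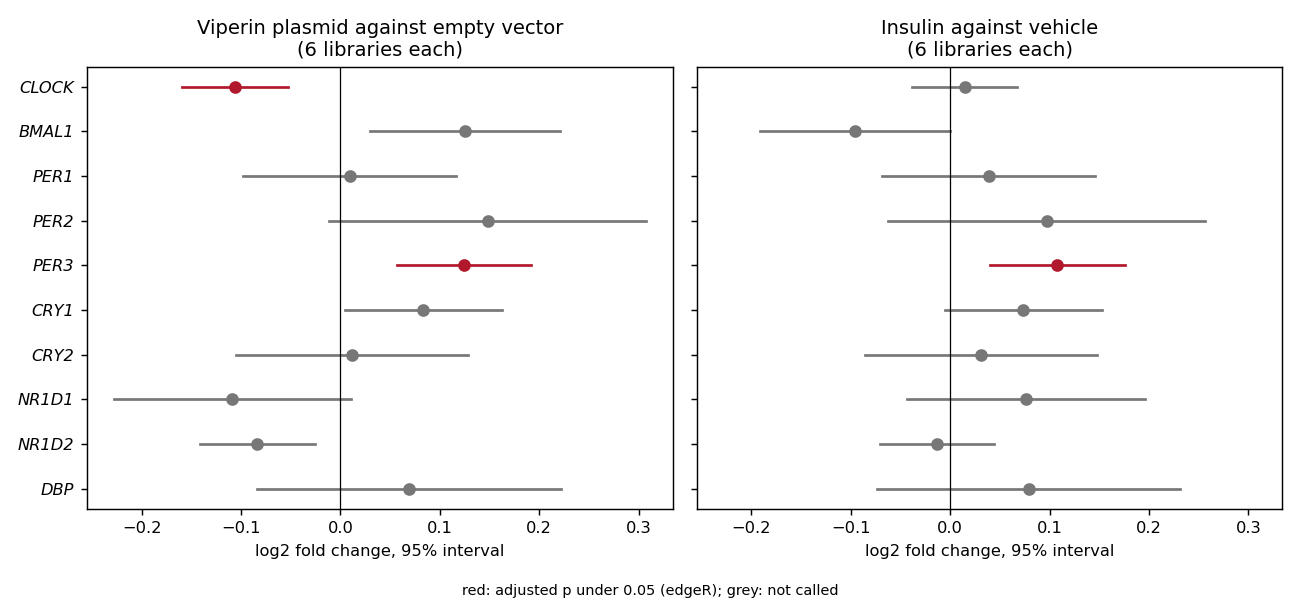
Log2 fold change with its 95% interval for each clock gene, with the Viperin plasmid against empty vector (left) and with insulin against vehicle (right), 6 libraries each, red where the edgeR adjusted p was under 0.05. CLOCK (-0.11) and PER3 (0.12) are red on the left and PER3 (0.11) on the right, and the intervals of the remaining members are grey.

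The 4 single comparisons, 3 libraries against 3, called 0 of 10 members each with edgeR at an adjusted p under 0.05. The share of all genes called was 2.29% for Viperin against Control, 5.49% for Insulin against Control, 4.56% for Viperin + Insulin against Viperin and 3.08% for Viperin + Insulin against Insulin. At an unadjusted p under 0.05, the counts of members were 2, 3, 2 and 6 in that order. For all 23041 genes tested, the counts at that threshold were 3104, 3991, 3574 and 3266. DESeq2 without independent filtering and limma-voom called 0 in each, and DESeq2 with independent filtering called 1 (CLOCK) for Viperin against Control and 0 in the other 3.

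Within these small groups some members did not overlap. In Viperin against Control, CLOCK was lower and PER3 was higher in every library, where 15.8% of all genes did not overlap. CLOCK had a log2 fold change of -0.12 (edgeR adjusted p = 0.0795) and PER3 one of 0.15 (edgeR adjusted p = 0.101). Without Control library 1, PER3 was called in this comparison (log2 fold change 0.18, edgeR adjusted p = 0.0211) and in Insulin against Control (log2 fold change 0.17, edgeR adjusted p = 0.0381). In Insulin against Control, PER3 (log2 fold change 0.13, edgeR adjusted p = 0.113) and BMAL1 (log2 fold change -0.15, edgeR adjusted p = 0.235) did not overlap, where 20.2% of all genes did not. BMAL1 was at 16.3, 15.9 and 17.6 CPM in Insulin and at 17.9, 17.9 and 19.3 CPM in Control. NR1D1, a target of the CLOCK and BMAL1 pair, was at 12.4, 15.5 and 14.4 CPM in Insulin and at 12.6, 10.9 and 13.9 CPM in Control, and these groups overlapped (log2 fold change 0.17, edgeR adjusted p = 0.275).

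In Viperin + Insulin against Viperin, CRY1 was higher and NR1D2 lower in every library, where 21.1% of all genes did not overlap. CRY1 was at 34.3, 34.6 and 37.4 CPM in Viperin + Insulin and at 32.7, 33.8 and 30.9 CPM in Viperin (log2 fold change 0.13, edgeR adjusted p = 0.219). DBP, an output factor whose mRNA swings widely in many tissues, was at 7.28, 8.59 and 7.43 CPM in Viperin + Insulin and at 6.04, 6.20 and 7.9985 CPM in Viperin (log2 fold change 0.21, edgeR adjusted p = 0.319). The DBP groups overlapped through Viperin library 3, one of the libraries that stood apart.

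In Viperin + Insulin against Insulin, 6 of the 10 members did not overlap, where 21.7% of all genes did not. BMAL1, CRY1, DBP and PER3 were higher in every Viperin + Insulin library, and CLOCK and NR1D2 were lower. BMAL1 was at 18.3, 18.5 and 19.4 CPM in Viperin + Insulin and at 16.3, 15.9 and 17.6 CPM in Insulin (log2 fold change 0.18, edgeR adjusted p = 0.149). NR1D2 was at 90.8, 90.8 and 91.1 CPM in Viperin + Insulin and at 92.1, 101.1 and 99.9 CPM in Insulin (log2 fold change -0.10, edgeR adjusted p = 0.173). NR1D1 was at 12.5, 12.3 and 11.9 CPM in Viperin + Insulin and at 12.4, 15.5 and 14.4 CPM in Insulin, and these groups overlapped (log2 fold change -0.21, edgeR adjusted p = 0.192). With only the 2 groups fitted, CLOCK (log2 fold change -0.10, edgeR adjusted p = 0.0179) and NR1D2 (log2 fold change -0.11, edgeR adjusted p = 0.0216) were called. Without Insulin library 1, NR1D1 (log2 fold change -0.29, edgeR adjusted p = 0.0474) and NR1D2 (log2 fold change -0.14, edgeR adjusted p = 0.0499) were called.

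The last comparison asked whether the response to insulin differed between the plasmids. None of the 10 members was called by edgeR, as was none of the 23041 genes, of which 1297 had an unadjusted p under 0.05. For the members that count was 0, and DESeq2 and limma-voom called 0 as well. The largest fitted difference was that of DBP, at 0.27 on the log2 scale (SE 0.15, edgeR adjusted p = 0.901), followed by NR1D1 at -0.19 (SE 0.12, edgeR adjusted p = 0.913). The half-widths ran between 0.106 for CLOCK and 0.319 for PER2, so the intervals of the members allow folds of 0.741 to 1.49 and leave room for sizeable differences in the rarer members.

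The genes whose profile over the 12 libraries was most like that of a member were found by the root mean square difference of centred log2 CPM, among 13129 genes with a mean of at least 1 CPM. For BMAL1 these were HAND2 (0.0389), DENND5B (0.0427) and ALDH7A1 (0.0430), where the median gene was at 0.134. For PER1 they were DMKN (0.0432), ERCC1 (0.0474) and SDE2 (0.0483), against a median of 0.122, and for DBP they were FOXF1 (0.0938), EVA1A (0.0965) and RABGEF1P1 (0.0989), against a median of 0.183. No other clock gene was among these 9. The distances share the depth of each library and carry no test.

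The same fit was read for 5 lists of related genes, with 59 genes of which 57 were tested. They hold other clock factors, genes for the turnover of clock proteins, clock output genes, immediate early and CREB-responsive genes, and glucocorticoid targets. With insulin over both plasmids, 4 were higher, 5 lower and 48 not called, which is 15.8% of the genes tested in these lists, against 11.7% of all genes. With the Viperin plasmid over both insulin states, 5 were higher, 2 lower and 50 not called, which is 12.3% against 7.96% of all genes. For the difference of the insulin responses 0 of 57 were called by edgeR.

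Among 11 other clock factors, TEF, a PAR bZIP factor that binds the same D-box as DBP, was the only one called with insulin. TEF averaged 27.9 ± 0.262 CPM in Viperin + Insulin and 23.7 ± 1.20 CPM in Viperin. It averaged 27.1 ± 1.23 CPM in Insulin and 23.6 ± 0.766 CPM in Control (SD, n = 3 each), so it was higher with insulin under both plasmids. Its log2 fold change with insulin was 0.22 (SE 0.04, edgeR adjusted p = 1.0e-04), while that of DBP was 0.08 (SE 0.08, edgeR adjusted p = 0.624). TIMELESS, a replication fork protein related to the fly clock gene, was the one called with the Viperin plasmid (log2 fold change 0.08, edgeR adjusted p = 0.0470). In each of these comparisons the other 10 factors of the list were not called.

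Of the 12 clock output genes, 2 were higher and 2 lower with insulin. ALAS1, the first enzyme of haem synthesis, had a log2 fold change of 0.15 (edgeR adjusted p = 8.8e-05), and NOCT, the Nocturnin phosphatase, one of 0.25 (edgeR adjusted p = 0.00174). WEE1, the kinase that holds back entry into mitosis, fell (log2 fold change -0.13, edgeR adjusted p = 0.00197), as did the lipid receptor PPARA (log2 fold change -0.11, edgeR adjusted p = 0.0113). With the Viperin plasmid, WEE1 was higher (log2 fold change 0.16, edgeR adjusted p = 1.3e-04). NAMPT, the rate-limiting enzyme of NAD salvage, was lower with the Viperin plasmid. NAMPT averaged 119 ± 5.75 CPM in Viperin + Insulin and 116 ± 1.80 CPM in Viperin, against 131 ± 4.08 CPM in Insulin and 131 ± 3.40 CPM in Control, a log2 fold change of -0.16 (edgeR adjusted p = 3.9e-05).

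Over the 13 genes given here for the turnover of clock proteins, among them casein kinases and glycogen synthase kinases, the lowest edgeR adjusted p was 0.0798 with insulin and 0.113 with the Viperin plasmid, and the unadjusted p was under 0.05 for 1 and 3 of them. Among all 23041 genes tested, it was under 0.05 for 5182 with insulin and 4420 with the Viperin plasmid. Of 14 immediate early and CREB-responsive genes, JUN was higher with insulin (log2 fold change 0.11, edgeR adjusted p = 0.00744), while NR4A1 (log2 fold change -0.33, edgeR adjusted p = 0.00589) and JUNB (log2 fold change -0.17, edgeR adjusted p = 0.0472) were lower. With the Viperin plasmid, the phosphatase gene DUSP1 (log2 fold change 0.19, edgeR adjusted p = 3.2e-04) and FOS (log2 fold change 0.46, edgeR adjusted p = 0.0297) were higher. Of 7 tested genes of the glucocorticoid list, FKBP5 was lower with insulin (log2 fold change -0.10, edgeR adjusted p = 0.0442). With the Viperin plasmid, NR3C1, the glucocorticoid receptor, was lower (log2 fold change -0.10, edgeR adjusted p = 0.00583) and CEBPD was higher (log2 fold change 0.32, edgeR adjusted p = 5.2e-04).

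**Figure D3:**
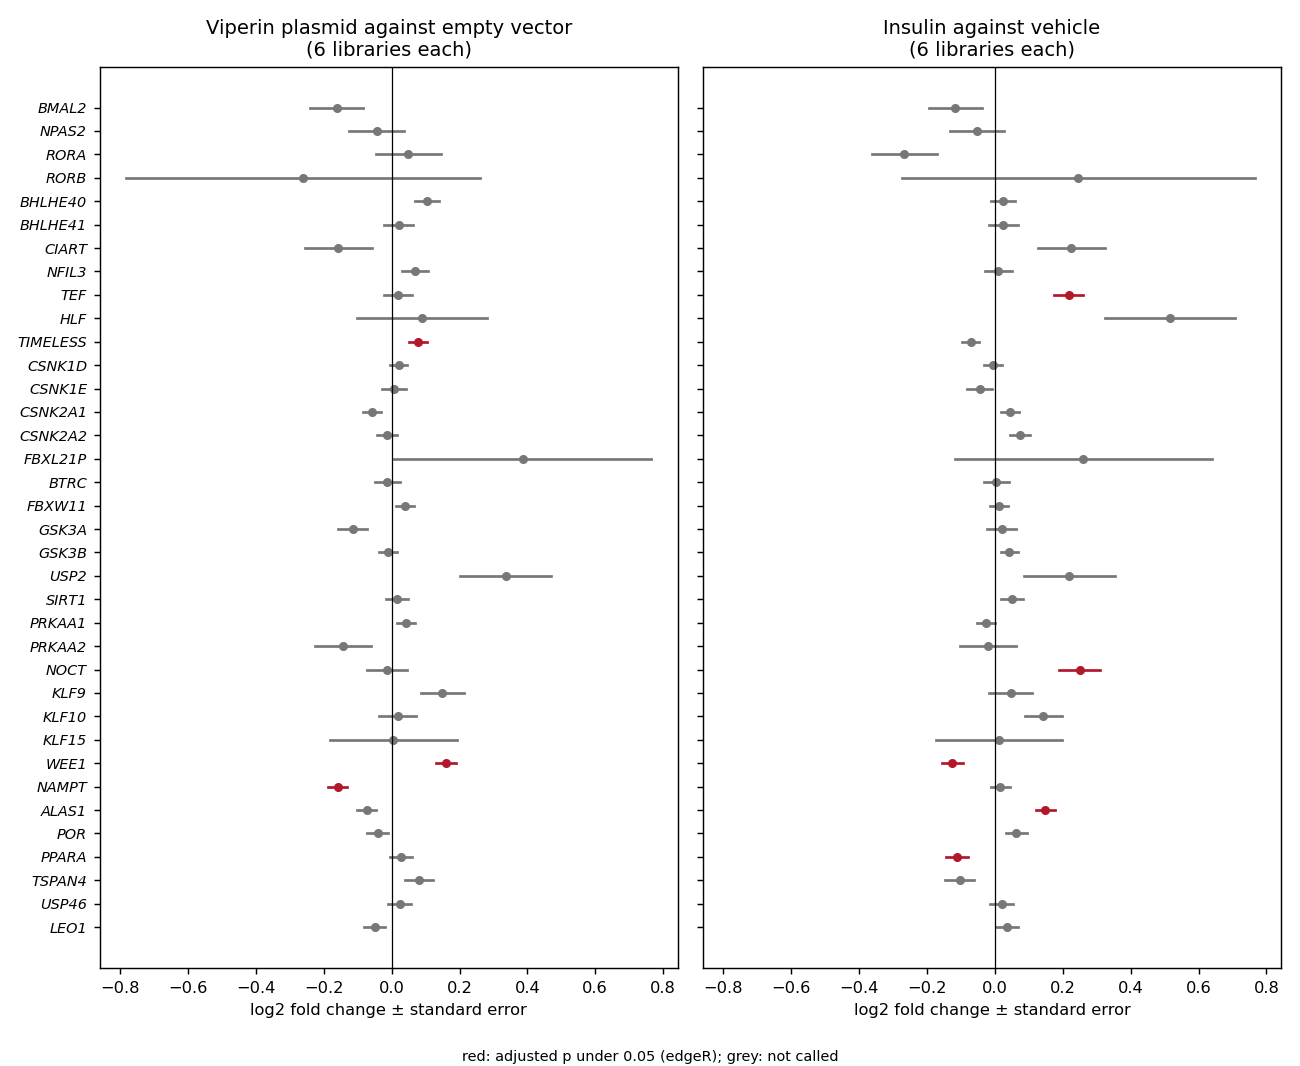
Log2 fold change ± SE of each tested gene among the other clock factors, the genes for turnover of clock proteins and the clock output genes, with the Viperin plasmid against empty vector (left) and with insulin against vehicle (right), 6 libraries each, red where the edgeR adjusted p was under 0.05. TIMELESS, WEE1 and NAMPT are red on the left and TEF, NOCT, WEE1, ALAS1 and PPARA on the right, and the widest bars belong to genes with few counts such as RORB.

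The 2 called members were followed through every setting. CLOCK stayed between -0.12 and -0.09 on the log2 scale and below an adjusted p of 0.05 in each of the fits at that threshold, but neither member passed an adjusted p of 0.001, the threshold of the study's methods, at which 2.05% of all genes were called for the Viperin plasmid and 3.92% for insulin. PER3 stayed positive in all of them, between 0.09 and 0.14 for the Viperin plasmid and between 0.09 and 0.15 for insulin.

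**Figure D4:**
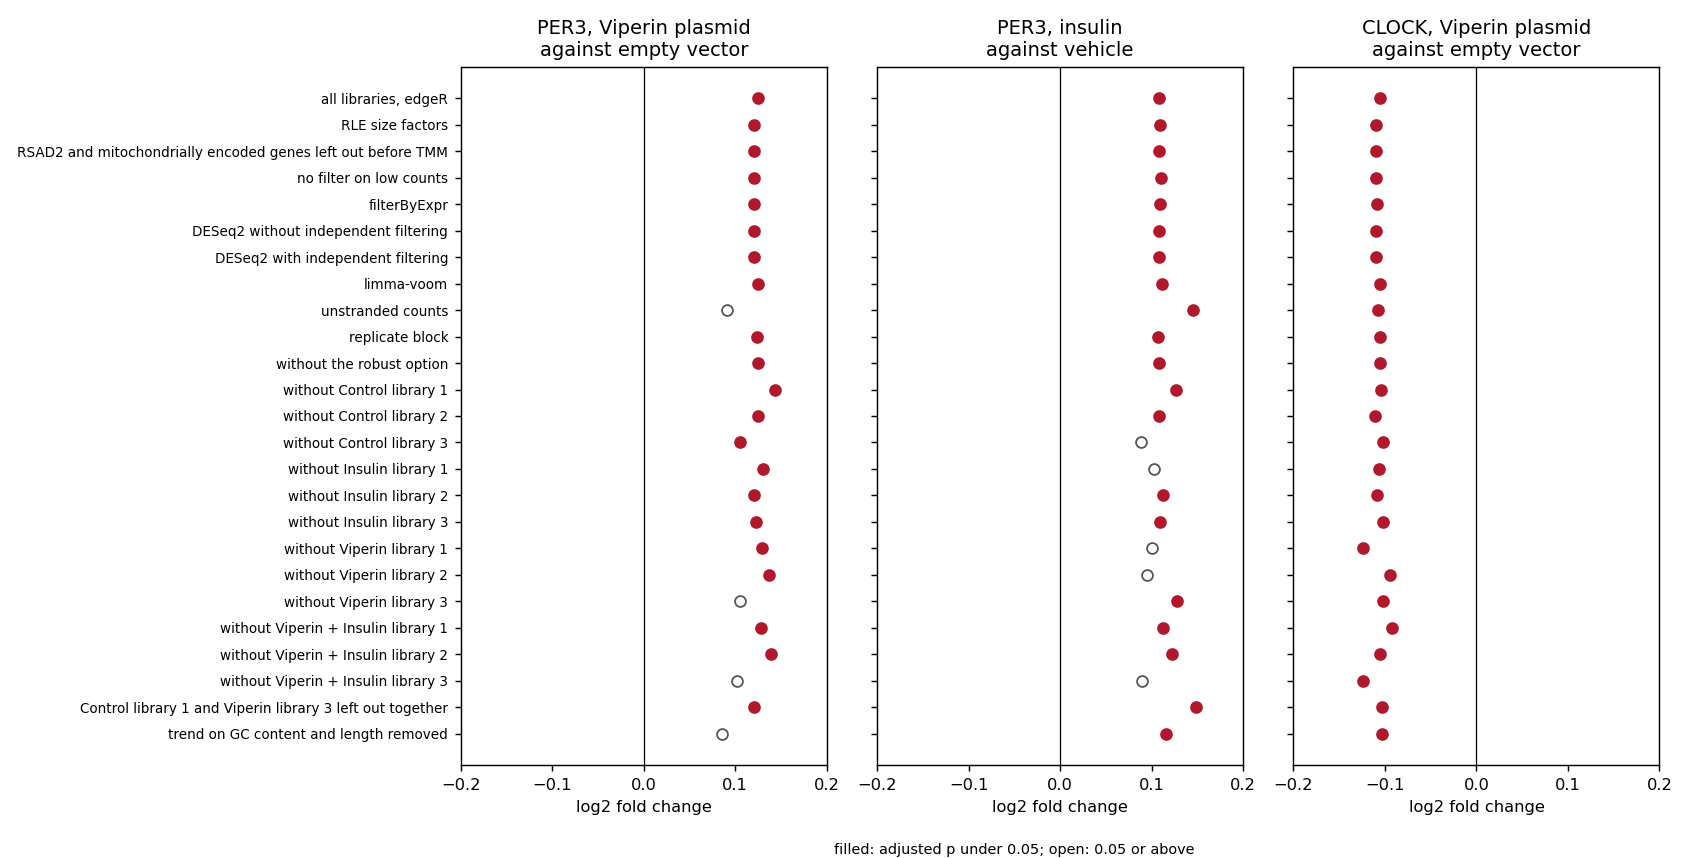
Log2 fold changes of PER3 with the Viperin plasmid (left), PER3 with insulin (middle) and CLOCK with the Viperin plasmid (right) under each setting tried, filled where the adjusted p was under 0.05 and open where it was not. The CLOCK values lie between -0.12 and -0.09 and are all filled, while 4 of the PER3 values are open on the left and 5 in the middle.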

How the data were processed

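Expression was measured by mRNA-seq (KAPA mRNA HyperPrep, paired-end reads) in 12 libraries of 12Z cells. Trimming used cutadapt and Trim Galore, quality control FastQC and alignment STAR on hg38, and the authors deposited STAR's raw gene counts for either strand and for both, not normalized or pooled. Versions of these tools were not given in the sources used here, and the GENCODE release the methods name is a mouse release. Reverse-strand counts were used, which held 94.1% to 94.3% of reads assigned to either strand. Reads that mapped to more than 1 place or to more than 1 gene are not in these counts, which lowers genes with overlapping neighbours. GENCODE release 44 gave a symbol for 60357 of the 60617 IDs and none for 260.

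After a filter at a mean of 1 count or more per library, 23041 genes were TMM-scaled and fitted as 4 group means with edgeR 4.0.16 (R 4.3.3, robust quasi-likelihood, prior count 0.125). All 7 comparisons used this fit, p-values were adjusted by Benjamini-Hochberg over all genes, and calls were made at an adjusted p under 0.05. The study's own design used DESeq2 with independent hypothesis weighting and 0.001, so 0.001, DESeq2 1.42.0 and limma-voom 3.58.1 were alternatives, beside other scalings, filters, strands, samples, a replicate block and the omission of single libraries. Where 1 was omitted, the remaining 2 of its group were assumed to vary like the other groups. A fit with a loess trend (span 0.5) on GC content and length removed was added after the data were seen. Each SE was derived from the fold change and the F statistic of edgeR's test. The 95% intervals use that SE and a t distribution with edgeR's moderated degrees of freedom. These were 69.5 for NR1D1 and 71.2 for the other members, where the libraries alone leave 8. P-values weigh a difference between groups against the spread between libraries within groups, which edgeR moderates over all genes.

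The members and the gene lists were chosen with earlier results of these data known. All members are named. Some genes that belong to these lists are not reported here. Of each related list, up to 4 called genes with the smallest p per pooled comparison are named, and the 3 nearest profiles are given for DBP, PER1 and BMAL1. Figures were made with Python 3.11.15 and matplotlib 3.10.9.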

Additional observations from a re-analysis of the deposited data

Results flagged for a closer look

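Reads on the strand opposite to a member are outside the comparisons, and for 4 members they exceeded the 3 counts that a count of 0 allows in every library. For NR1D1, 28.45% of the counts of both strands lay on the other strand (138 to 229 counts per library), where THRA overlaps its exons. For DBP, 32.13% did (68 to 186 counts), where SPHK2 overlaps its exons. For BMAL1 the share was 3.036% (9 to 28 counts), beside an unnamed gene on the other strand, and for CLOCK it was 0.4664% (15 to 38 counts), where TMEM165 overlaps. For the other 6 members at least 1 library had 3 or fewer such counts. Single libraries of the groups of 3 were not tested as outlying.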

How the results depend on the processing

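CLOCK was called lower with the Viperin plasmid in every fit at an adjusted p under 0.05, and no fit reversed the direction of CLOCK or PER3. At an adjusted p under 0.001, 0 members were called with the Viperin plasmid and 0 with insulin, and the related lists had 4 and 2 calls. For Viperin against Control, 1 member (CLOCK) was called by DESeq2 with independent filtering and 1 (CLOCK) with the GC and length trend removed. For Insulin against Control, 1 (PER3) was called without both Control library 1 and Viperin library 3 and 1 (PER3) with the trend removed, and for Viperin + Insulin against Insulin, 2 (CLOCK and NR1D2) were called with only the groups compared. With the trend removed, the 2 members called with the Viperin plasmid were CLOCK and NR1D2, in place of CLOCK and PER3. Leaving out each library in turn gave 0 to 1 called members for Viperin against Control and 0 to 1 for Insulin against Control (PER3, both without Control library 1), 0 to 2 for Viperin + Insulin against Insulin (2 without Insulin library 1), 0 to 1 for insulin over both plasmids and 1 to 3 for the Viperin plasmid over both insulin states. The related lists had 6 to 11 calls with insulin and 5 to 11 with the Viperin plasmid, 11 without Control library 1. No shared effect of the replicate number was seen, since same-numbered libraries of different groups had deviations correlated at -0.111 to 0.0869, against -0.128 to 0.0996 for other numbers. These correlations cannot show whether same-numbered libraries came from 1 experiment. The replicate block kept 2 called members with the Viperin plasmid and 1 with insulin, with related-list counts of 6 and 9. The counts of PER2 (138 to 280) and DBP (187 to 350) limit the precision of these members most.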
